A study of Mus musculus with 6 samples.

Results

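Weaning was followed in the ileum of germ-free mice, which are raised in isolators without microbes, by setting 1 postweaned sample against 2 preweaned samples on expression arrays. The samples were chosen by their labels, and a gene was included when its probe was detected in at least 1 of these 3 samples, which gave 10041 genes. A gene was called when the postweaned sample lay 2-fold or more (1 on the log2 scale) above, or below, each preweaned sample.

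All mice were C57BL/6J. RNA came from the ileum, which ends the small intestine, and its Cy5-labelled copies were read in 1 colour on Mouse OneArray slides made by Phalanx. The groups used here were germ-free postweaned (n = 1), germ-free preweaned (n = 2) and, for reference levels, conventional mice under specific pathogen free (SPF) housing after (n = 1) and before (n = 1) weaning and preweaned gnotobiotic mice with a humanized microbiota (n = 1), 6 samples and 21 arrays in all. There were 3 arrays for a sample, but germ-free preweaned 1 had 2 sets of 3, which were averaged, so 12 arrays carry the germ-free values. The labels give no age for the weaning groups; 3 weeks is stated for the gnotobiotic mice and for the germ-free mice used with them. The labels do not say how many animals stand behind a sample or whether the preweaned samples came from separate litters, and the spread between them may be technical.

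At weaning the mouse pup goes from milk, which is rich in fat and carries lactose, iron-binding protein and maternal antibody, to solid food that is poor in fat and rich in starch and plant material. The suckling ileum takes up milk protein whole: endocytic receptors carry it into large lysosomes that digest it inside the cell. The mature gut digests at the surface, with sucrase, maltase and peptidases of the brush border, and this change runs on an inborn programme that diet and hormones adjust.

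Values are log2 intensities after quantile normalization with an offset of 50, and a value near 6 lies at background. Of the probes on an array, 29.8% to 50.3% were detected over all 21 arrays. Genes above background numbered 8613 in the postweaned sample, against 8791 and 7427 in preweaned 1 and 2. The median SD between arrays was 0.137 in the postweaned sample, against 0.118 and 0.0861 in the preweaned samples. The preweaned samples differed from each other by 2-fold or more at 2256 genes (22.5%). This exceeds the 1355 genes called after weaning, but a call needs 2-fold or more against 2 samples rather than 1. The like counts for the postweaned sample were 1851 higher and 1972 lower against preweaned 1, and 949 and 1064 against preweaned 2. Across genes, which are not independent replicates, the postweaned sample correlated with preweaned 2 at r = 0.885 and with preweaned 1 at 0.743, and the preweaned samples with each other at 0.84.

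Features of the arrays and animals run alongside the comparison. Both germ-free preweaned samples and the humanized sample form 1 set of arrays that detect 49 probes absent from every array of the other set, which holds the postweaned germ-free and both SPF samples and detects 54 probes of its own. These 103 probes were left out. The arrays also fall into 2 numbered series, with preweaned 2 and the humanized sample in the second, so the comparison with preweaned 1 alone is the one within a series. Array set and weaning cannot be told apart within the germ-free samples, so the level in the SPF preweaned sample, read in the postweaned set, is given beside the results. The Y-linked gene Ddx3y read 6.51 in the postweaned sample, on none of its 3 arrays above background (0), against 7.82 in preweaned 1 and 9.84 in preweaned 2. Within preweaned 1 the column sets read 9.63 and 6.01 for Ddx3y and 9.34 and 5.79 for Uty, so these sets differ at both genes. Nothing in the labels says that they hold the same RNA, and the values of preweaned 1 may average 2 different samples. With the first or the second set alone, 90 of the called-higher and 67 of the called-lower genes lost their call against at least 1 of the sets, and where a gene named below is among them this is stated. The part of these differences in the results was not tested.

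The ileal markers were present after weaning: Fabp6, the bile acid-binding protein of ileal enterocytes, read 14.22 in the postweaned sample, against 8.02 in preweaned 1 and 11.34 in preweaned 2. Slc10a2, the bile acid uptake transporter that defines the ileum, read 9.80 in the postweaned sample, against 5.82 in preweaned 1, where no array detected it, and 8.85 in preweaned 2. Slc10a2 was thus not above background in preweaned 1.

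**Figure D1:**
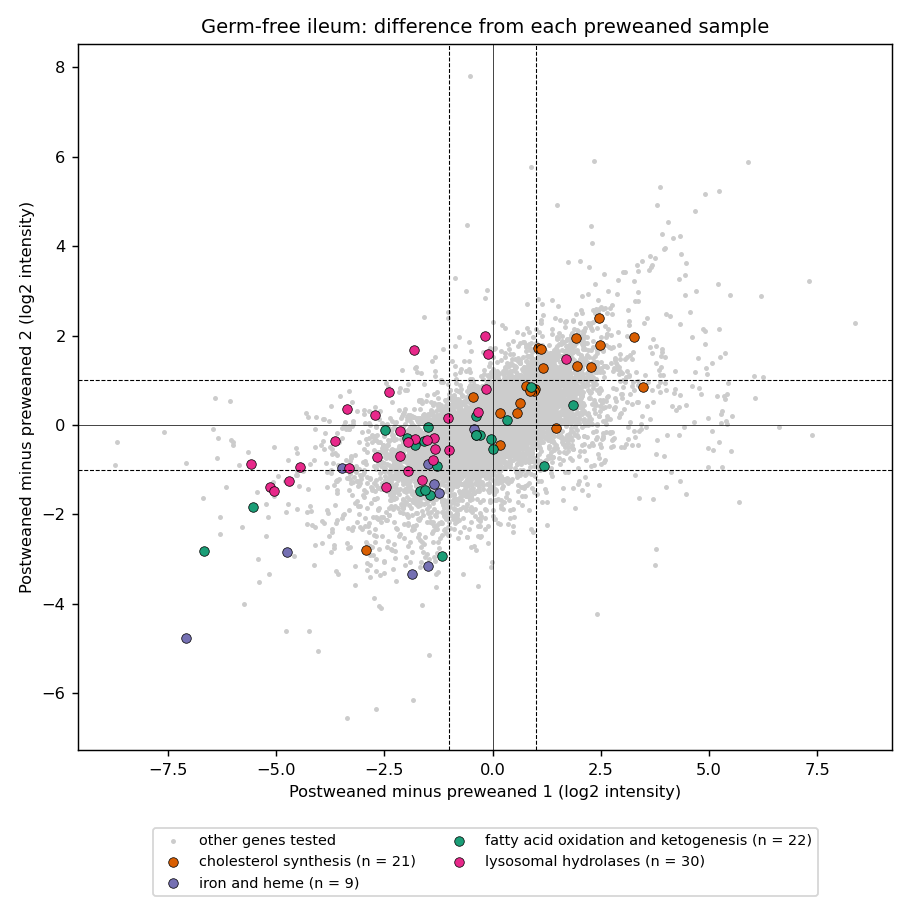
Each point is a gene of the germ-free ileum; the x axis gives postweaned minus preweaned 1 and the y axis postweaned minus preweaned 2, both in log2 intensity, with dashed lines at 1 and -1. Cholesterol synthesis genes gather in the upper right corner and iron genes in the lower left, while lysosomal hydrolases spread far to the left along the x axis and lie on both sides of 0 on the y axis, with 6 of 30 below -1 and 4 above 1.

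After weaning, 691 genes (6.88% of 10041) lay 2-fold or more above each germ-free preweaned sample and 664 (6.61%) lay 2-fold or more below each. Against preweaned 1 alone the counts were 1851 higher and 1972 lower, and against preweaned 2 alone 949 higher and 1064 lower. Only 49 genes lay 2-fold or more from each preweaned sample in opposite directions. No gene (0) passed limma at an adjusted p under 0.05 with 1 residual degree of freedom, 651 had an unadjusted p under 0.05, and the smallest adjusted p was 0.651. Nothing below therefore passed a test across genes, and "called" refers to size and direction. With scaling to the 75th percentile in place of quantile normalization, the calls were 1010 higher and 395 lower, so that 71.9% of them were higher, against 51% in the main setting.

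Weaning in SPF mice uses other samples, both in the array set of the postweaned germ-free sample. Of the genes called higher in germ-free mice, 143 (20.7% of 691, and 13.8% of the 1034 higher in SPF weaning) were also 2-fold or more higher in SPF weaning and 20 (2.89%) were 2-fold or more lower. Over all genes 10.3% were higher and 9.74% lower in SPF weaning. Of the genes called lower, 133 (20% of 664, and 13.6% of the 978 lower in SPF weaning) were also lower in SPF weaning, while 115 (17.3%) were higher. The array sets lay 2-fold or more apart without overlap at 153 of the called-higher genes (22.1%) and 141 of the called-lower genes (21.2%). A gene apart in this way is called by construction, so these counts say only how many calls also follow the array sets.

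**Figure D2:**
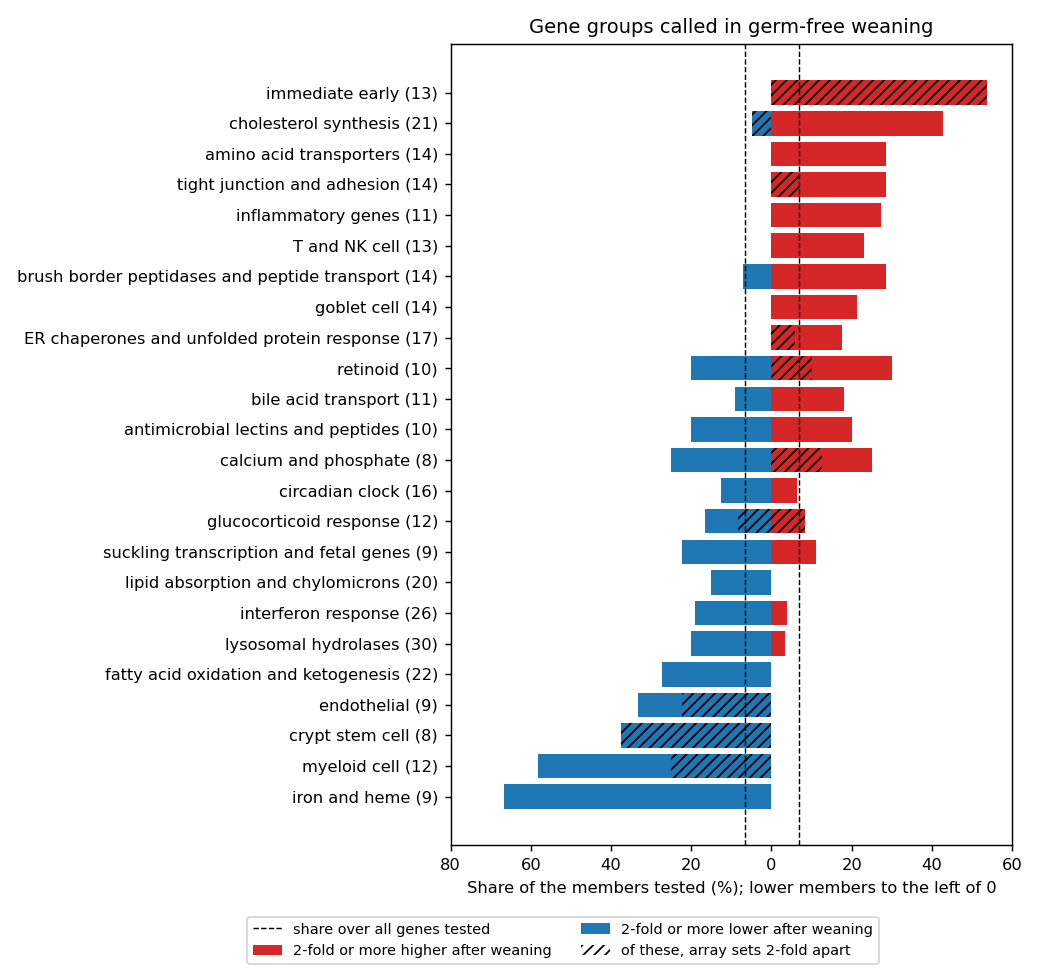
Bars give, for each gene group with 8 or more members tested and 3 or more called, the share of members 2-fold or more higher (right) or lower (left) after weaning than each preweaned sample, with the number tested in brackets; dashed lines mark 6.88% and 6.61%, the shares over all genes, and hatching marks members whose array sets lay 2-fold apart. Cholesterol synthesis stands highest on the right without hatching and iron and heme lowest on the left, while the immediate early bar is hatched throughout.

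The mevalonate and sterol pathway was the gene group with the most members higher after weaning that did not follow the array sets. Of 21 members tested, 9 (42.9%, against 6.88% of all genes) were called higher and 1 lower, 17 lay above both preweaned samples (against 38% of all genes), and the median difference was 1.06 from preweaned 1 and 0.84 from preweaned 2, against 0.00251 and -0.0011 over all genes. For all 9 the SPF preweaned level lay on the side of the germ-free preweaned samples. The promoters of 4 of the 9 are printed here because members lay higher together and the pathway is known to be driven by sterol-sensing SREBP factors acting with NF-Y, the factor that binds CCAAT. The sequences are from RefSeq (GRCm38.p6), 250 bases before to 50 after the gene start, 5′ to 3′ on the gene's strand, with CCAAT or its reverse complement ATTGG in capitals: Mvd at chr8:122443373-122443672 (minus strand), Idi1 at chr13:8885356-8885655 (plus), Mvk at chr5:114444019-114444318 (plus) and Cyp51 at chr5:4104648-4104947 (minus).
Mvd: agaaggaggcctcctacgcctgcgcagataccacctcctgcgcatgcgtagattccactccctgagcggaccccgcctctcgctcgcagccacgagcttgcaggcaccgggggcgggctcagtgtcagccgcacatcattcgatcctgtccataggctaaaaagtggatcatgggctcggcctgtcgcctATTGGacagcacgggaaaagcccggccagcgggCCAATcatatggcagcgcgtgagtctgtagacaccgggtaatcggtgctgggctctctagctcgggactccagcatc
Idi1: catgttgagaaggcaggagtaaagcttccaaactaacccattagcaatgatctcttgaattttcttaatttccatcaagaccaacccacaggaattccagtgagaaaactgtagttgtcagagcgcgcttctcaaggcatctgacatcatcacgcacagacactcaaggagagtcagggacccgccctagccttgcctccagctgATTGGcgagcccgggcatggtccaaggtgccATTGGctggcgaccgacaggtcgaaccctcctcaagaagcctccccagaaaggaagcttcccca
Mvk: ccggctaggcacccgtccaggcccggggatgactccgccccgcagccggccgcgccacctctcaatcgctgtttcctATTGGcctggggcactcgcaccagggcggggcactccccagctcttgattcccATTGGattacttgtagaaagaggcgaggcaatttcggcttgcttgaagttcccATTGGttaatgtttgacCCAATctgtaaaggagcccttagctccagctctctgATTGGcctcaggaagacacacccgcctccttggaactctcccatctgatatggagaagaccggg
Cyp51: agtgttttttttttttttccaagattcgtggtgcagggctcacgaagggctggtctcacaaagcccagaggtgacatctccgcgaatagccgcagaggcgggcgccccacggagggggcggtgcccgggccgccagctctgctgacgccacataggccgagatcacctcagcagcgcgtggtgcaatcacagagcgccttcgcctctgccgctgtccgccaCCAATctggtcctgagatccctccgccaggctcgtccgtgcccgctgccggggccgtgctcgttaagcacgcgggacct
Promoters were available for 13 of the 21 members, and CCAAT on either strand lay in 12 of the 13, against 38.0% of the 7958 tested genes with a promoter. All 5 called members with a promoter held it. The sterol element spelled TCACNCCAC, searched on both strands, was in 0 of the 13, against 0.98% of the tested genes. With no sterol element found, no overlap between the motifs arose. The first listed start of each gene was used, and a match is a description of the letters, not of binding.

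Fdft1, squalene synthase at the branch to sterols, read 11.84 in the postweaned sample, against 9.38 and 9.43 in preweaned 1 and 2. It was 5.47-fold and 5.29-fold higher, and the difference from the preweaned mean was 2.43 ± 0.51 (limma SE; adjusted p = 0.651). Idi1, the isopentenyl isomerase, read 11.06 after weaning, against 8.58 and 9.26 before. Mvd, the mevalonate decarboxylase, read 10.25 after weaning, against 8.33 and 8.31 before. In each of these genes the postweaned value lay far outside the preweaned pair. Sqle, the squalene epoxidase, read 10.23 after weaning, against 8.28 and 8.90 before, with 10.48 in the SPF postweaned and 6.19 in the SPF preweaned sample. Called members also included the kinases Mvk (2.27 and 1.29 above preweaned 1 and 2) and Pmvk (1.12 and 1.70) and the demethylase Cyp51 (1.17 and 1.27), the last of which lay 0.98 above the first column set of preweaned 1 and so lost its call there. Dhcr7, Lss, Hsd17b7 and Ebp, enzymes of the later sterol steps, lay above both preweaned samples by less than 2-fold. Stard4, a sterol carrier, was the member called lower, at 9.03 after weaning, against 11.96 and 11.82 before, and its array sets lay apart, with 8.20 in SPF preweaned ileum. In SPF weaning the median of the 21 members was 0.85.

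**Figure D3:**
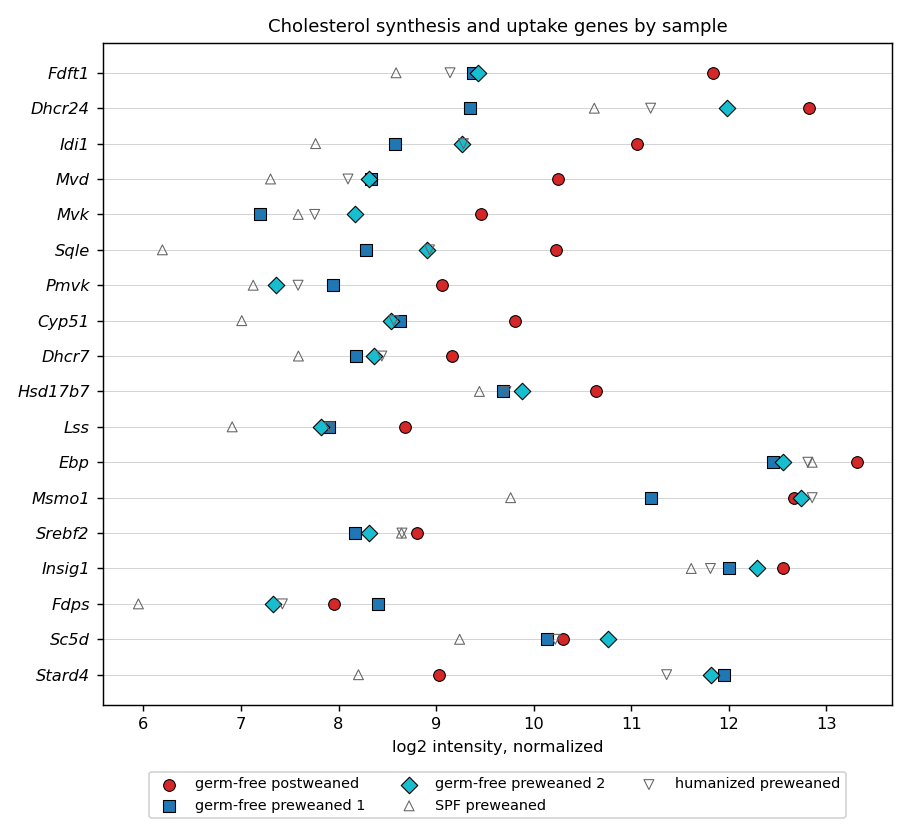
Log2 intensity (x axis) of 18 cholesterol synthesis and uptake genes in the germ-free postweaned and the 2 germ-free preweaned samples (filled) and the SPF and humanized preweaned samples (open), ordered by the difference from the preweaned mean. For 14 of them the postweaned point lies right of both germ-free preweaned points, and Stard4 lies left.

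Iron transport was the group with the largest share of members lower. Of 9 members tested, 6 (66.7%, against 6.61% of all genes) were called lower, all 9 lay below both preweaned samples (against 37.9% of all genes), and none (0) of the 6 was apart between the array sets. Slc40a1, ferroportin, which exports iron from enterocytes into blood, read 8.66 after weaning, against 15.74 and 13.42 before. It was 136-fold and 27.1-fold lower, the called-lower gene farthest from both preweaned samples, at -5.93 ± 1.10 from their mean (limma, adjusted p = 0.651). In the SPF samples it read 13.33 after and 14.47 before weaning. Slc11a2, the DMT1 iron importer of the brush border, read 9.24 after weaning, against 14 and 12.09 before, and 10.55 in SPF postweaned, against 13.42 in SPF preweaned ileum. Cybrd1, the ferric reductase, read 5.88 after weaning and was on no array above background, against 7.75 and 9.21 before, so that it was at least 1.17-fold and 3.21-fold lower. Slc46a1, a folate and heme carrier, read 10.16 after weaning, against 11.66 and 13.32. Heph, the ferroxidase that works with ferroportin, read 11.29 after weaning, against 12.64 and 12.61, and Ireb2, an iron-sensing RNA-binding protein, read 9.90, against 11.14 and 11.42. Against the first column set of preweaned 1, which read 11.02 for Slc46a1 and 10.76 for Ireb2, both lost their call. For both Heph and Cybrd1 the SPF preweaned level, 10.63 and 6.83, lay nearer the postweaned germ-free value than the preweaned mean, and both were higher in SPF weaning, by 1.53 and 1.03. Tfrc, the transferrin receptor, and Fth1, the ferritin heavy chain, lay below both preweaned samples by less than 2-fold against at least 1 of them. Of the 10 tested genes that mark the proximal small intestine, 2 were called lower (20%, against 6.61%), Slc40a1 and Cybrd1. Over these 10, 4 lay below both preweaned samples and 1 above both. Their summed intensity was 95200 after weaning, against 157000 and 148000 before. Gata4, the factor that sets proximal identity, read 10.25 after weaning, between the preweaned values of 9.90 and 10.50.

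Fat burning and ketone synthesis, which the suckling gut runs on milk fat under PPAR-alpha, had 6 of 22 members called lower (27.3%, against 6.61%) and 0 higher. In all 6 the SPF preweaned level lay with the germ-free preweaned samples, and all 6 were lower in SPF weaning too. Acot1, an acyl-CoA thioesterase, read 6.28 after weaning and was on no array above background, against 11.82 and 8.11 before. It was at least 19.6-fold and 1.5-fold lower, and its preweaned samples themselves lay 3.71 apart. Acadl, Acaa2 and Acaa1b, enzymes of the beta-oxidation cycle, were lower by similar amounts against each sample: Acadl read 11.92 after weaning, against 13.60 and 13.39, Acaa2 14.23, against 15.78 and 15.67, and Acaa1b 10.29, against 11.73 and 11.86. Pdk4, the kinase that spares glucose by shutting pyruvate dehydrogenase, read 9.12, against 10.28 and 12.04. The column sets of preweaned 1 read 9.28 and 11.28 for Pdk4, and against the first it lost its call. Against preweaned 1 alone 12 members lay 2-fold or more lower, as did 1972 of all 10041 genes. The median over the 22 members was -1.22 from preweaned 1 and -0.33 from preweaned 2. Fbp1, a gluconeogenic enzyme, read 8.66 after weaning, against 14.46 and 10.94, and Plin2, which coats lipid droplets, read 9.40, against 14.19 and 10.66. Among 20 genes of lipid absorption, 3 were called lower (15%, against 6.61%) and 0 higher. By any size 10 lay below both preweaned samples and 7 above both, with medians of -0.17 and -0.1. The 3 were Plin2, Dgat2 and Apob. Dgat2, the last step of triglyceride synthesis, was 4.44-fold and 3.87-fold lower and Apob, the chylomicron backbone, 4.57-fold and 3.62-fold lower. Apob differed the other way in SPF weaning (1.64) and its SPF preweaned level, 10.97, was below the postweaned germ-free 11.67.

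**Figure D4:**
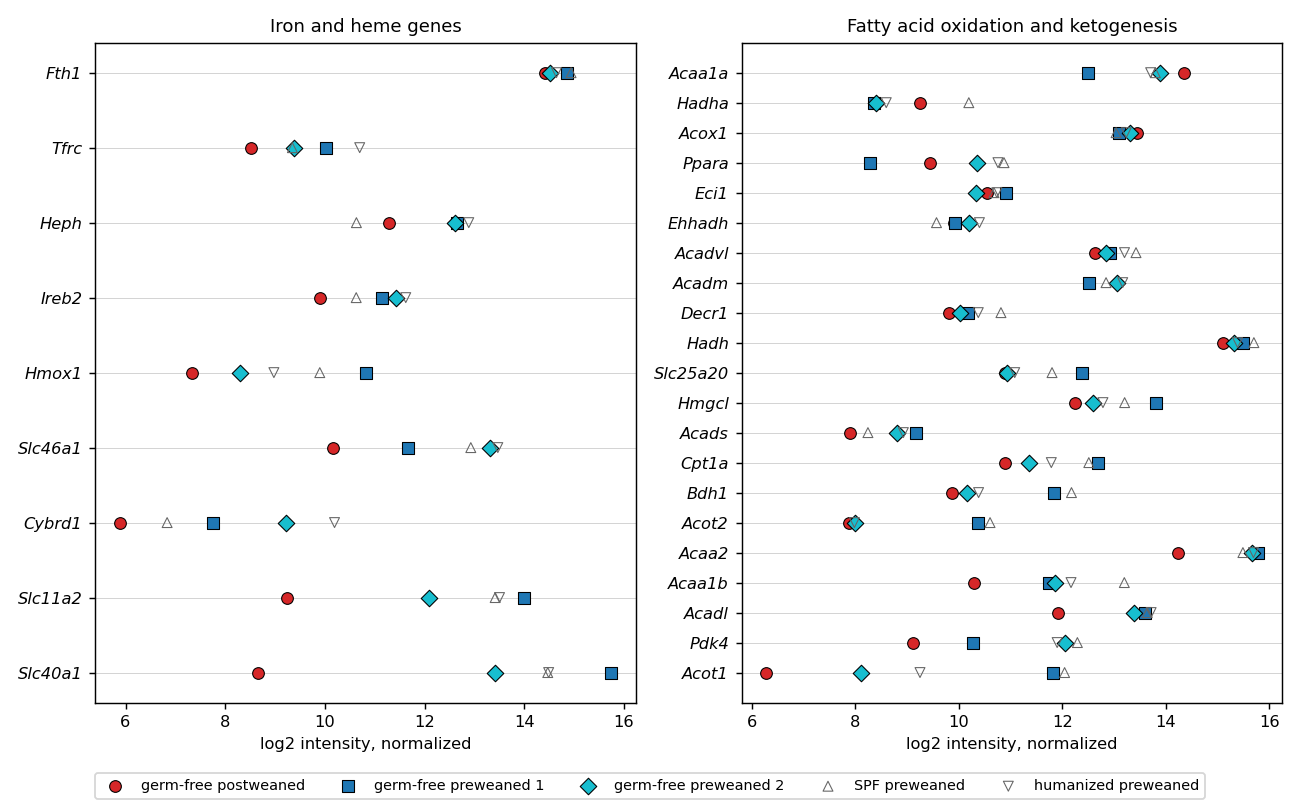
Log2 intensity (x axis) of 9 iron and heme genes (left) and 21 genes of fatty acid oxidation and ketogenesis (right) in the germ-free postweaned and the 2 germ-free preweaned samples (filled) and the SPF and humanized preweaned samples (open). Slc40a1 and Acot1 show the postweaned sample left of every preweaned point.

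The machinery of milk protein uptake and lysosomal digestion was lower mainly against preweaned 1. Of 30 lysosomal genes, 25 lay 2-fold or more below preweaned 1 but 6 below preweaned 2, and these 6 (20%, against 6.61%) were called, with medians of -1.95 and -0.38. Over all 10041 genes, 1972 lay 2-fold or more below preweaned 1 and 1064 below preweaned 2. Ctsl, cathepsin L, read 10.12 after weaning, against 15.16 in preweaned 1 and 11.59 in preweaned 2. Lgmn, legumain, read 10.70 after weaning, against 15.85 and 12.09, and Gusb, beta-glucuronidase, read 7.47, against 12.17 and 8.73. Psap, the precursor of the saposins that aid glycolipid breakdown, was another called member at 11.28, against 13.24 and 12.31, while Ppt1 was called higher at 11.41, against 9.71 and 9.93. The SPF preweaned sample resembled preweaned 1 (Ctsl 14.77, Lgmn 14.86) and the humanized preweaned sample resembled preweaned 2 (Ctsl 11.86, Lgmn 12.22).

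Of 13 endocytosis genes, 6 lay 2-fold or more below preweaned 1 and 1 below preweaned 2, while 2 lay 2-fold or more above preweaned 1. Cubilin (Cubn) and its partner Amn, which take up vitamin B12 with intrinsic factor, did not show this split: Cubn read 13.24 after weaning, against 11.93 and 12.62, and Amn read 15.39, against 15.83 and 15.51. Meltf, a suckling-stage melanotransferrin, read 5.91 after weaning, against 14.62 in preweaned 1 and 6.80 in preweaned 2, and 14.63 in SPF preweaned ileum. Mamdc4, the apical endosomal glycoprotein of suckling enterocytes, read 8.42 after weaning, against 14.82 and 7.81, and Dab2, an endocytic adaptor, read 6.54, against 9.78 and 6.45. Neither Mamdc4 nor Dab2 was called, since preweaned 2 read within 1 on the log2 scale of the postweaned value. Fcgrt, the neonatal Fc receptor that takes up maternal antibody, read 11.74 after weaning, against 15.21 and 12.74. It was the 1 of 13 members called lower (7.69%, against 6.61% of all genes), beside 1 higher (Tmigd1, 7.69%, against 6.88%). Both shares lay near those of all genes. Of 9 fetal and suckling regulator genes 1 was called higher (11.1%, against 6.88%) and 2 lower (22.2%, against 6.61%). Igf2bp1, a fetal RNA-binding protein, was the higher one at 7.15, above background on 2 of its 3 arrays, against 6.05 and 5.95, both not above background, and it lost its call against the first column set of preweaned 1, at 6.21. Igf2bp3, of the same family, read 6.90 after weaning, against 10.62 and 9.22, and Afp, the fetal serum protein, read 7.05, against 11.35 and 9.27. Both were at background after weaning, at least 8.53-fold and 3.22-fold lower for Igf2bp3. Prdm1, the repressor that holds the suckling programme, read 8.35, against 11.03 and 9.31. Of 8 tested genes of arginine synthesis, which suckling enterocytes perform, 1 was called lower (12.5%, against 6.61%) and 1 higher (12.5%, against 6.88%). The lower one, Cps1, read 8.42, against 13.10 and 9.74. Cps1 also counts among 5 tested genes typical of liver, all 5 below both preweaned samples, with Ambp and Cps1 called lower (40%, against 6.61%). The summed intensity of these 5 was 1040 after weaning, against 38700 and 2010, with 6260 in SPF preweaned ileum. Their source was not tested.

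Sugar digestion showed the reverse. Of 10 disaccharidase and hexose transport genes, 8 lay 2-fold or more above preweaned 1 but 2 above preweaned 2, with medians of 4.09 and 0.09. Over all 10041 genes, 1851 lay 2-fold or more above preweaned 1 and 949 above preweaned 2. Called higher were 2 of the 10 (20%, against 6.88% of all genes), and 0 were called lower. The 2 were Mgam, maltase-glucoamylase, at 14.66 after weaning, against 9.71 and 13.52, and Slc5a1, the SGLT1 glucose transporter, at 14.57, against 10.72 and 13.35. For both the SPF preweaned level (14.31 and 14.08) was already near the postweaned value. Sis, sucrase-isomaltase, the textbook marker of the weaned gut, read 13.50 after weaning, against 9.04 in preweaned 1 and 15.03 in preweaned 2, so it was 22.0-fold higher than the first and 2.90-fold lower than the second. Treh, trehalase, turned in the same way at 13.47, against 9.15 and 14.72. Lct, lactase, which hydrolyses milk sugar, was not lower after weaning, at 14.54, against 13.76 and 13.95. The germ-free preweaned samples thus differed in both the lysosomal and the sucrase genes. The column sets of preweaned 1 read 8.05 and 10.02 for Sis and 7.74 and 10.56 for Treh. In SPF preweaned ileum Sis and Treh read 13.04 and 12.94, near the postweaned values, while Ctsl, at 14.77, was near preweaned 1. The 2 kinds of gene therefore did not go together across the preweaned samples. Preweaned 1 and 2 also lie in different array series, and the part of this was not tested.

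**Figure D5:**
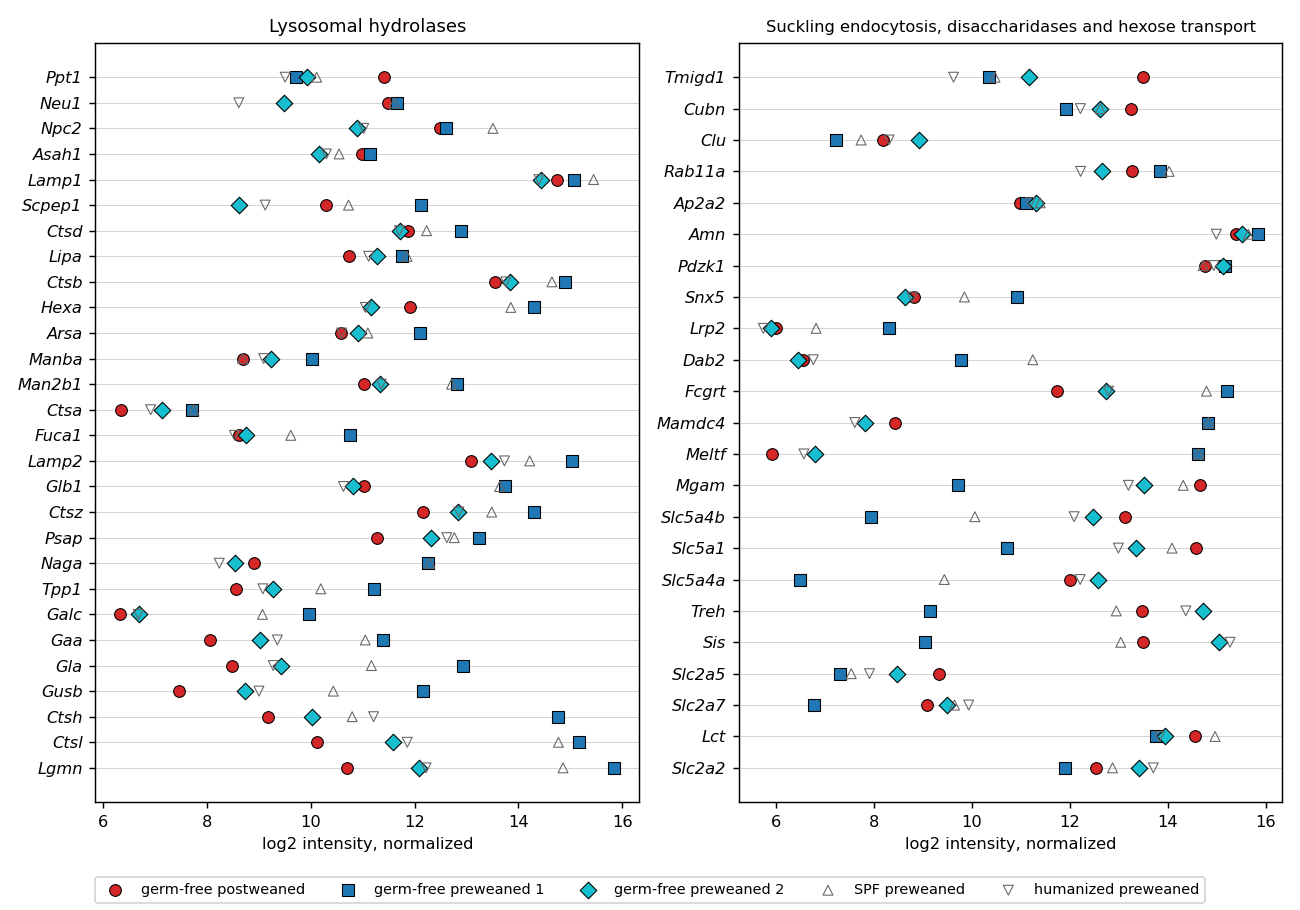
Log2 intensity (x axis) of 28 lysosomal genes (left) and of suckling endocytosis followed by disaccharidase and hexose transport genes (right), in the germ-free postweaned and the 2 germ-free preweaned samples (filled) and the SPF and humanized preweaned samples (open). For most lysosomal genes preweaned 1 and SPF preweaned lie to the right while postweaned, preweaned 2 and humanized lie together.

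Brush border protein digestion had 4 of 14 members called higher (28.6%, against 6.88%) and 1 lower. Naaladl1, a peptidase of the ileal brush border, read 13.43 after weaning, against 11.15 and 11.26, and Mep1a, the meprin A subunit, read 14, against 12.62 and 11.96. Mep1a lost its call against the first column set of preweaned 1, at 13.10. Enpep, aminopeptidase A, read 10.48, against 7.40 and 9.41, and Mme, neprilysin, read 8.35, against 6.54 and 7.05 at background. Tmprss15, enterokinase, which activates trypsin and is a proximal enzyme, was the lower one at 6.10, against 7.93 and 12.25. Its column sets of preweaned 1 read 6.23 and 9.63, and against the first it lost its call. Amino acid transporters had 4 of 14 called higher (28.6%, against 6.88%) and 0 lower: Slc6a19, the neutral amino acid carrier B0AT1, read 12.38 after weaning, against 9.90 and 11.18. Slc7a7 (11.95, against 10.29 and 10.81), Slc1a1 (11.46, against 9.49 and 10.39) and Slc7a9 (15.22, against 14.17 and 13.43) carry basic and acidic amino acids or cystine. Slc7a9 lost its call against the first column set of preweaned 1, at 14.37. Of these 8 called-higher genes, 7 had the SPF preweaned level nearer the germ-free preweaned mean, and the exception was Slc7a9. For Naaladl1 that level, 12.31, lay about midway. In SPF weaning Naaladl1 and Mep1a differed the other way (-0.22 and -0.64), while the others were higher, by 0.06 (Slc7a7) to 2.24 (Slc6a19).

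Of 11 bile acid genes 2 were called higher (18.2%, against 6.88% of all genes) and 1 lower (9.09%, against 6.61%). Fabp6 was higher by 6.19 and 2.88. Slc51a, a subunit of the basolateral exporter OST, was higher at 14.39, against 13.11 and 12.85, though not by 2-fold against the first column set of preweaned 1, at 13.74. Abcc2, an apical conjugate pump, was lower at 11.13, against 14.27 and 12.82. Fgf15, the ileal hormone that bile acids induce, lay below preweaned 1 and above preweaned 2, at 11.15, against 12.19 and 8.62. Calcium and mineral genes lay on both sides: S100g, the calcium carrier calbindin-D9k, read 7.86 after weaning, against 10.44 and 11.94, and Trpm6, a magnesium channel, read 12.63, against 7.78 and 10.48. Slc34a2 was called higher, but its 3 postweaned arrays had an SD of 4.77. Cytochrome P450 and related phase 1 genes resembled sucrase, with 14 of 17 members 2-fold or more above preweaned 1 and 6 below preweaned 2. Over all 10041 genes these counts were 1851 and 1064. Under the calling rule 1 of the 17 was higher (5.88%, near the 6.88% of all genes) and 0 were lower. Cyp2b10 read 12.20 after weaning, against 6.50 and 13.91.

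Of 14 goblet cell genes 3 were called higher (21.4%, against 6.88% of all genes) and 11 lay above both preweaned samples by any size (against 38%), with medians of 0.76 and 0.99. Muc2, the gel-forming mucin, read 15.60 after weaning, against 13.09 and 14.33, and Fcgbp, a mucus protein, read 14.84, against 12.10 and 12.82. Atoh1, the factor that commits cells to the secretory lineage, read 8.13, against 6.86 and 6.81, both below detection. In bulk tissue a change in the number of such cells and in RNA per cell cannot be told apart. For all 3 the SPF preweaned level lay on the preweaned side, and in SPF weaning the group's median was 1.51. Of 15 enteroendocrine genes 2 were called lower (13.3%, against 6.61%), Chgb at 10.81, against 13.21 and 12.82, and the hormone Cck at 8.92, against 11.81 and 10.77. Of 5 Paneth cell genes tested, 0 were called, and Lyz1 read 12.16, against 12.27 and 13.61. Claudin genes Cldn3 and Cldn7, the scaffold Tjp1 and E-cadherin (Cdh1) were the 4 of 14 junction genes called higher (28.6%, against 6.88%). Cldn7 and Tjp1 lost their call against the first column set of preweaned 1, and only Tjp1 had the SPF preweaned level on the preweaned side.

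The Reg lectins, secreted antimicrobial proteins, differed in opposite directions. Reg3g, which kills Gram-positive bacteria, read 12.89 after weaning, against 7.63 and 11.36, and Reg3b read 14.52, against 9.46 and 13.14. Reg1 read 7.20, against 9.89 and 13.56, with 7.54 and 12.24 in the column sets of preweaned 1, so that it lost its call against the first, and Reg4 read 10.02, against 12.87 and 12.41. In SPF weaning Reg3g differed by 6.30. T and NK cell genes had 3 of 13 called higher (23.1%, against 6.88%), 10 above both preweaned samples and medians of 1.80 and 0.70, against 4.39 in SPF weaning. Il2rb, a receptor chain for IL-2 and IL-15, read 9.19 after weaning, against 7.07 and 7.08, but the SD between its postweaned arrays was 0.59. Gzma, a granzyme of intraepithelial lymphocytes, read 11.86, against 8.19 and 11.07, and was not called. Of 26 interferon genes 1 was called higher (3.85%, against 6.88%) and 5 lower (19.2%, against 6.61%): Ido1 read 11.25 after weaning, against 6.34 and 9.15, while Bst2, an antiviral tether, read 10.18, against 12.18 and 11.67. Of 6 MHC class II genes 2 were called lower (33.3%, against 6.61%) and 1 higher (16.7%, against 6.88%). The lower ones were the chains H2-Aa (10.39, against 12.55 and 12.88) and H2-Eb1 (9.50, against 10.56 and 11.24). In SPF weaning these chains were higher by 5.38 and 4.40. Their SPF preweaned levels, 8.87 and 8.46, lay below the germ-free postweaned values. The higher one was H2-DMa (8.14, against 7.04 and 6.92), which lost its call against the first column set of preweaned 1, at 7.16. C3, the central complement protein, read 11.17 after weaning, against 8.87 and 7.09, and in SPF mice it read 7.17 after and 8.74 before weaning.

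Markers of macrophages, the deeper wall and the crypt held many called-lower genes, most of them low also in the SPF preweaned sample of the same array set. Of 12 myeloid genes 7 (58.3%, against 6.61%) were called lower, among them the complement subunits C1qa (8.02, against 10.32 and 11.25), C1qb and C1qc of tissue macrophages and their receptor kinase Csf1r (6.56, against 12.85 and 8.61). In SPF preweaned ileum C1qa read 7.69, C1qb 6.31 and C1qc 6.63, and of the 7 genes only Csf1r had its SPF preweaned level on the preweaned side. Stem cell genes had 3 of 8 called lower (37.5%, against 6.61% of all genes): Ascl2, Olfm4 and Smoc2. No postweaned array (0) detected these, so they were tested through the preweaned samples alone. Lower fibroblast genes were 4 of 7 (57.1%: Col4a2, Sparc, Timp3 and Dcn). Endothelial genes had 3 of 9 lower (33.3%: Egfl7, Emcn and Cdh5) and smooth muscle genes 2 of 6 (33.3%: Myh11 and Myl9). Of these 12 genes, 8 lay 2-fold apart between the array sets, and Dcn lost its call against the first column set of preweaned 1, at 9.80. Other members lay above both preweaned samples: the stem cell marker Msi1 read 9.11, against 8.58 and 8.35, the matrix protein Mgp 8.90, against 8.08 and 8.25, and the endothelial receptor Kdr 8.35, against 7.29 and 8.01. The summed intensity of the fibroblast list was 2070 after weaning, against 7230 and 7160, with 3510 in SPF preweaned ileum. That of the endothelial list was 1520, against 2160 and 4030, with 1240 in SPF preweaned ileum. The part of these markers in the other lower genes was not tested.

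Immediate early genes, which cells switch on within minutes of a stimulus or of handling, had the largest share higher of the groups with 8 or more members, 7 of 13 (53.8%, against 6.88%). Egr1 read 13.83 after weaning, against 9.75 and 11.40, Atf3 10.75, against 6.29 and 7.12, and Fosb 11.69, against 6.48 and 8.53. In SPF preweaned ileum they read 14.82, 10.21 and 11.99, each within 1 on the log2 scale of the germ-free postweaned level, and all 7 genes lay 2-fold apart between the array sets. Their median in SPF weaning, within 1 array set, was 0.15.

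Among single genes outside these groups, the largest differences upward often rested on uneven arrays. Of the 20 called-higher genes farthest from both preweaned samples, for 14 the SD over the postweaned arrays was at least 0.5, against 4.38% of all genes, and 15 lay within 1 on the log2 scale of the germ-free preweaned mean in both SPF samples and the humanized sample. Atp10a, a lipid flippase, read 11.28 after weaning, against 6.36 and 6.11, with an SD of 1.0 between its arrays. Mir137, Nkx6-1, Odf1, Trpm8 and Taar3 showed the same pattern. Iyd, the iodotyrosine deiodinase, was even between arrays (SD 0.10) and read 11.55 after weaning, against 5.64 and 5.66, and 10.60 and 9.24 in SPF postweaned and preweaned ileum, so its array sets lay apart. Of the 20 called-lower genes, 1 had such an SD (Prkag2) and 9 lay apart between the array sets, among them Adamdec1, a protease of gut macrophages, at 6.19, against 10.96 and 10.80. Lower genes that were not apart included Sult6b2 (6.06, against 9.43 and 12.61), Podxl (6.72, against 11.89 and 10.05), Aadac (7.53, against 12.94 and 10.54) and Ap1s3 (7.17, against 10.35 and 10.34).

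In the remaining groups the counts stand against 6.88% of all genes called higher and 6.61% called lower. Of 19 respiratory chain genes 1 was lower (Ndufa9) and 13 lay below both preweaned samples; of 22 transcription factors of maturation and region 1 was lower (Ovol2); of 16 clock genes 2 were lower (Bhlhe40 and Per2) and 1 higher (Nr1d2). Of 17 chaperone genes 3 were higher (Atf4, Hsp90b1 and Hspa5), of 10 retinoid genes 3 were higher (30%: Bco1, Cyp26b1 and Rdh16) and 2 lower (20%: Scarb1 and Rbp4), and of 11 inflammatory genes C3, Nos2 and Nfkbiz were higher. Hspa5 and Scarb1 lost their call against the first column set of preweaned 1. Rdh16 had an SD of 1.27 between its preweaned 2 arrays, and its array sets lay apart. With detection required in all 3 germ-free samples 0 retinoid genes were called higher, and with an offset of 200, 0 were called lower. Of 17 conjugation and efflux genes Abcb1a was higher and Gsto1 lower, and of 9 zinc genes Slc30a2 was higher. Of 6 ribosomal genes Rpl8 was called higher, but its preweaned arrays had SDs of 2.75 and 3.86, and it lay 0.34 above the first column set of preweaned 1. Of 5 genes typical of the large intestine, 3 were higher (60%: Ceacam20, Car4 and Hoxd13), and Car4, a carbonic anhydrase, read 10.45 after weaning, against 6.46 and 8.92.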

How the data were processed

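Each deposited file gives, per the file headers, the raw intensity of every probe on each array of a sample, with a detection p-value that the authors deposited beside it; the scanner software, the background step and the basis of the p-value were not given in the sources used here. Intensities are whole numbers, some below 0, so a background had been subtracted. The authors also deposited 1 intensity per probe and sample, used as an alternative. The 21 arrays were quantile-normalized, values below 0 set to 0, an offset of 50 added and log2 taken, which understates folds of dim genes. Arrays were averaged within column sets and samples. Arrays of a sample were not treated as replicates, and precision is limited by the number of samples, 1 postweaned and 2 preweaned.

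A probe was above background when detected (p under 0.05) on most arrays of a sample. Where no array of the dimmer sample detected it, the fold is given as "at least", with each dim array taken at its own value or its lowest detected value, whichever was higher. Symbols of 22553 probes were updated through RefSeq names (GRCm38.p6): 19966 matched a current and 2150 an older symbol. The tested probe with the highest mean represented a gene.

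Fits used limma 3.58.1 in R 4.3.3 with Benjamini-Hochberg adjustment over 10041 genes. The fit and the calling rule were also run on data simulated from the main values. Genes named are the 20 called genes per direction farthest from both preweaned samples, detected on every array of the brighter side, up to 6 members per gene list farthest from both preweaned samples and up to 3 that turn direction, and Y-linked genes; Mamdc4, Dab2, Gata4, Psap, Tfrc, Fth1, Mvk, Pmvk, Cyp51, Dhcr7, Lss, Ebp and Hsd17b7 were added after their values were seen. Members, lists and the CCAAT search were chosen with earlier results of these data known. The normalization, offset, filter on dim probes, choice of probe, column sets and left-out samples were varied. Some genes that the rule names are not reported here and are not drawn in the plots by gene, though they count in the group totals.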

Additional observations from a re-analysis of the deposited data

Results flagged for a closer look

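These named genes were called in 1 direction after weaning in germ-free ileum and lay 2-fold or more the other way in SPF ileum, where 1 postweaned sample was set against 1 preweaned sample. The difference between the germ-free and the SPF weaning was not tested, and the value given is postweaned minus preweaned in SPF mice on the log2 scale.

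Most were lower after weaning in germ-free mice and higher in SPF mice. Among immune genes these were H2-Aa (5.38), H2-Eb1 (4.40), Ubd (5.99), Irf9 (1.43), C1qa (1.19), C1qb (1.21), C1qc (3.00) and Adamdec1 (1.22), covering antigen presentation, an interferon-induced modifier, an interferon signal protein and macrophage products. Among epithelial and secreted proteins they were Reg1 (1.06), Reg4 (2.04), Tmprss15 (5.78), Cck (1.73), Abcc2 (1.27), Apob (1.64), Ambp (1.18) and Rbp4 (1.39). Among iron and phosphate genes they were Heph (1.53), Cybrd1 (1.03) and Slc20a1 (1.44). The crypt and division genes Olfm4 (1.04) and Top2a (2.08) and the genes Sult6b2 (3.37), Ociad2 (1.77), Dync1li1 (1.93) and Dag1 (1.49) completed this direction.

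The reverse, higher in germ-free and lower in SPF weaning, held for C3 (-1.57), Slc30a2 (-1.48) and Rpl8 (-1.31). Rpl8 had uneven arrays in both germ-free preweaned samples. Reg1 and Tmprss15 read 7.54 and 6.23 in the first column set of germ-free preweaned 1, against which their germ-free call ends.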

How the results depend on the processing

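The settings were changed one choice at a time. The calls were 691 higher and 664 lower in the main setting. Scaling to the 75th percentile gave 1010 higher and 395 lower, and moved the median of all genes to 0.111 from the preweaned mean, against -0.00978. An offset of 200 gave 355 higher and 285 lower. Requiring detection in all 3 germ-free samples gave 308 higher and 328 lower of 6717 genes. Without 1 preweaned sample the calls ranged over 949 to 1851 higher and 1064 to 1972 lower, because 1 condition fewer was required. Under an alternative added after seeing the data, genes whose SPF preweaned level lay nearer the germ-free preweaned mean gave 351 higher and 232 lower of 4391. The other settings stayed within 1.5 times of the main counts, from 538 to 859 higher and 523 to 905 lower. Limma called 0 genes in every setting with a residual degree of freedom, with 198 to 2040 at an unadjusted p under 0.05; without 1 preweaned sample it has none and was not run.

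The 172 named genes that were called kept the direction of their difference from the preweaned mean in all 2665 recomputed values. They had been chosen for lying 2-fold or more the same way from each preweaned sample. That choice largely fixed the direction, so this count does not measure how steady the calls were. The number of cholesterol members called higher was 5 to 9 over the planned settings, lowest with an offset of 200. Iron members called lower numbered 4 with the first column set of preweaned 1 and 4 of those whose SPF preweaned level lay on the preweaned side. Lysosomal members called lower numbered 3 with 75th percentile scaling. Of the called genes, 0 of 7 immediate early, 0 of 3 stem cell, 1 of 4 fibroblast and 4 of 7 myeloid genes were not apart between the array sets. With detection required in all 3 samples 1 myeloid gene was called lower, against 7, and 0 stem cell and 0 endothelial genes, against 3 each. No paired analysis was possible because the postweaned group holds 1 sample. The cause of each shift was not tested, other than what a setting's own construction gives.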
